A study of Mus musculus with 6 samples.

Results

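The 10 genes described here encode parts of the desmosome and of the adherens junction, with the epithelial adhesion molecule Epcam beside them. They are Cdh1, Epcam, Dsp, Jup, Pkp1, Pkp2, Pkp3, Dsc2, Dsc3 and Dsg2, taken as a list and matched by gene symbol, and all 10 had a probe set among the 18193 genes with one. Where a gene had several probe sets, the brightest on average was read, and all 10 passed the filter that left out the dimmest 30% of genes, as did 12735 genes in all. RNA came from bladders of mouse embryos at embryonic day 18.5. The arrays fall into 3 of Get1 -/- (null) bladders, numbered 1 to 3 in their titles, and 3 of Get1 +/- (heterozygous) bladders, numbered 4 to 6. Get1 is a synonym of Grhl3, a transcription factor of the grainyhead-like family that acts in surface epithelia. The heterozygous controls also carry 1 mutant allele, and no wild-type bladder is compared here. The sources used here do not say how the Get1 allele was made or whether animals were pooled, so p-values measure the spread between these samples only. The comparison asks which transcripts differ in the bladder that lacks Get1.

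Both junctions join neighbouring epithelial cells through cadherins that span the membrane. In the adherens junction E-cadherin, the product of Cdh1, holds catenins on its tail, which connect it to actin. In the desmosome the cadherins are desmogleins and desmocollins, plakoglobin (Jup) and the plakophilins (Pkp1, Pkp2, Pkp3) bind their tails, and desmoplakin (Dsp) ties this plaque to keratin filaments. Some desmosomal genes are used in nearly all desmosomes, such as Dsg2, Dsc2 and Pkp2 in simple epithelia, and others, such as Dsc3 and Pkp1, mainly in stratified epithelia. In the bladder these junctions hold together the layers of the urothelium, the lining of the lumen.

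Promoter sequences were available from RefSeq (assembly GRCm38.p6) for 3 of the 10 members, Epcam, Dsp and Jup. The pair printed belongs to genes whose null and heterozygous arrays did not overlap. Each run covers 250 bases before the annotated gene start, 5′ to 3′ on the gene's own strand, and for both genes that is the plus strand. Capitals mark ACCGGT, the 6 central letters of the grainyhead-like consensus AACCGGTT, and CACCTG or its reverse complement CAGGTG, the E-box letters that repressors of the Snail and Zeb families are known to bind. The letters ACCGGT were chosen after the sequences had been seen.
Epcam, chr17:87635729-87635978: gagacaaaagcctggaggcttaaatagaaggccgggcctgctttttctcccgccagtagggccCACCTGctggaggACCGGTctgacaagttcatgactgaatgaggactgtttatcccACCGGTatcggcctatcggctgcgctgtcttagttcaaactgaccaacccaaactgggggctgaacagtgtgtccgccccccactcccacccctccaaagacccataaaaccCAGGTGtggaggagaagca
Dsp, chr13:38151044-38151293: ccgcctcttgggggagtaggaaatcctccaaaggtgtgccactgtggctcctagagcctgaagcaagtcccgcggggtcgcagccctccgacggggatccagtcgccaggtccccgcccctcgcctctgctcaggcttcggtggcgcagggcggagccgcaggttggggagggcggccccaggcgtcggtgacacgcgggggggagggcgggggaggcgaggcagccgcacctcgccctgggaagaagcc

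The Epcam window held ACCGGT 2 times, beginning 174 and 131 bases before the start, and the E-box letters 2 times, beginning 187 and 19 bases before it. The full AACCGGTT was in 0 of the 3 member windows, and the windows of Dsp and Jup held none of the 3 motifs. Both strands were searched over the same 250 bases of 32851 promoters: 1.86% of them held ACCGGT, 17.2% held the E-box letters and 0.116% held AACCGGTT, and every AACCGGTT also counts as an ACCGGT. These matches describe letters only, and binding was not measured.

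The arrays had similar scale, with median signals over all probe sets between 58.2 and 70.4 on the null arrays and between 64.1 and 72.4 on the heterozygous arrays. As a check of the labels, the Grhl3 level, as log2(signal + 16), was 6.53, 5.23 and 7.08 on the null arrays, against 7.32, 7.22 and 7.15 on the heterozygous arrays. The groups did not overlap, the difference did not pass the test (adjusted p = 0.655, limma), and the sources used here do not place this probe set relative to the deletion, so it may check nothing. Null array 1 has 1 as the first number of its title where the other 5 arrays have 2, and the meaning of that number is not given.

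Levels below are log2(signal + 16) and differences are null minus heterozygous on that scale, tested with limma over all 12735 genes at a Benjamini-Hochberg adjusted p under 0.05. Of the 10 members 0 passed in either direction, against 0.51% of all genes tested (0.448% higher and 0.0628% lower). At an unadjusted p under 0.05, 4 members were higher in null (Cdh1, Dsc2, Epcam and Pkp2) and 0 lower, beside 3.63% of all genes that were higher and 4.3% that were lower by that measure. For 6 members (Cdh1, Epcam, Dsc2, Pkp2, Dsp and Dsg2) every null array lay above every heterozygous array, which held for 6.07% of all genes, and for 0 members every null array lay below, beside 7.36% of all genes. The differences were above 0 for 8 of 10 members, beside 45.1% of all genes, and their median was 0.64, beside −0.03 for all genes. The members were listed with earlier results of these data known, so these counts are a description of the list. For a whole organ, a changed number of epithelial cells and a changed amount of RNA per cell cannot be told apart.

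**Figure D1:**
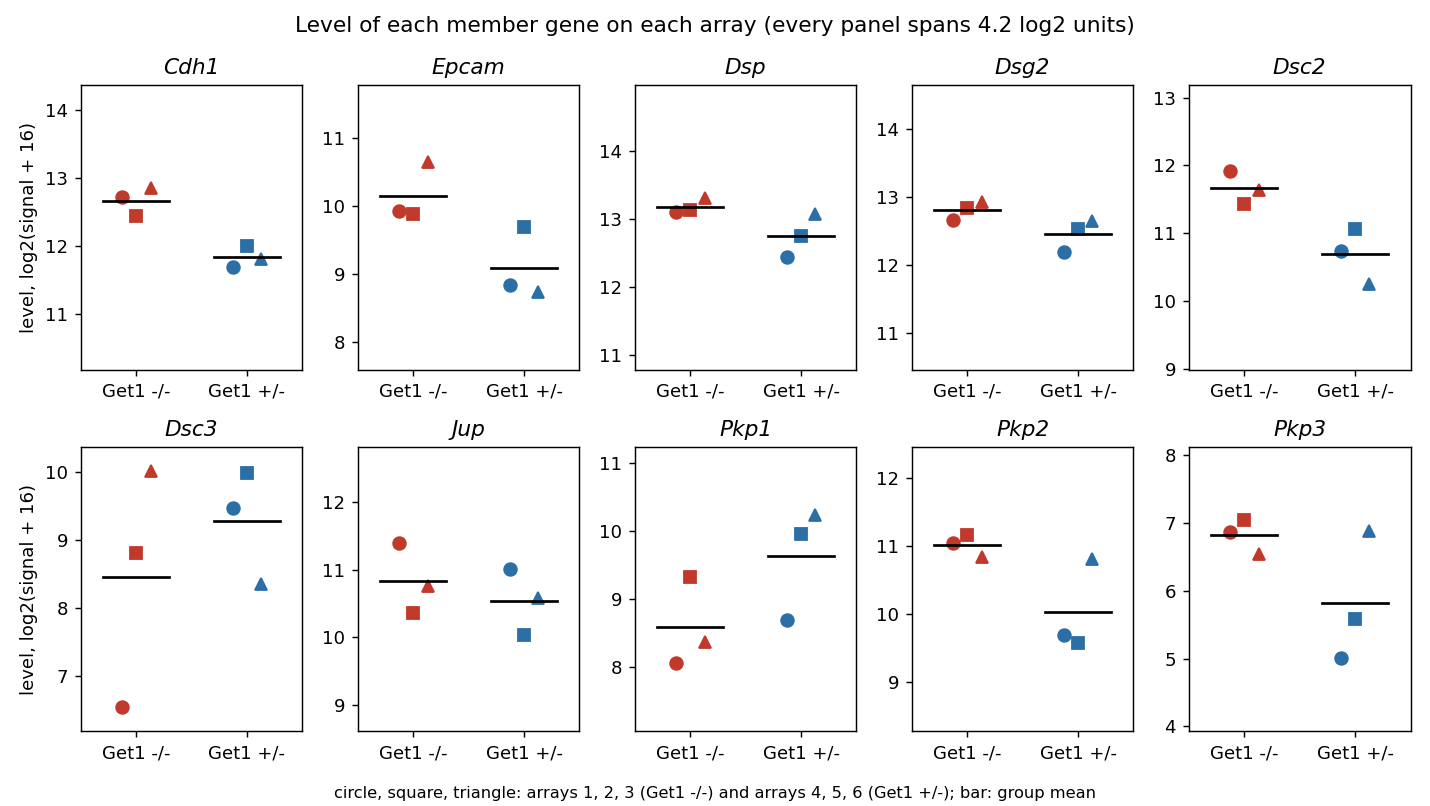
Level of each of the 10 genes on each array, as log2(signal + 16), with Get1 -/- arrays on the left and Get1 +/- arrays on the right of each panel; bars are group means over 3 arrays. Cdh1 and Dsc2 leave a clear gap between the groups, Dsp, Dsg2 and Pkp2 a small one, and the 3 Get1 -/- arrays of Dsc3 are spread widely.

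Cdh1, which encodes E-cadherin, the adhesion receptor of epithelial adherens junctions, had signals of 6734, 5529 and 7401 on null arrays 1 to 3, against 3299, 4073 and 3561 on heterozygous arrays 4 to 6. All null arrays were higher, and the lowest null array lay 0.44 above the highest heterozygous array on the log2 scale. The level averaged 12.67 ± 0.21 in null bladders and 11.83 ± 0.15 in heterozygous ones (SD, n = 3 each), a 1.79-fold difference (log2 difference 0.84, SE 0.22) that did not pass over all genes (adjusted p = 0.308, limma). The 95% interval of this fold, not adjusted for the number of genes, ran from 1.26 to 2.54. An exact permutation test of 3 against 3 arrays gave p = 0.1 (two-sided), the smallest such a design allows.

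Epcam encodes a membrane protein of epithelial cells that interacts with claudins and is needed in the gut epithelium. The null arrays read signals of 960.2, 926.2 and 1587, against 444.1, 816.1 and 409.2 on the heterozygous arrays. Null array 3 was the highest and heterozygous array 5 came closest to the null group, without overlap. The level averaged 10.15 ± 0.43 in null bladders and 9.09 ± 0.53 in heterozygous ones (SD, n = 3 each), with a log2 difference of 1.06 (SE 0.34, adjusted p = 0.444, limma). A second, dimmer probe set of Epcam had a difference of 0.76, with groups that overlapped. With single arrays left out the difference ranged from 0.81 (without null 3) to 1.36 (without heterozygous 5).

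Among the desmosomal cadherins, Dsc2 (desmocollin 2) had signals of 3858, 2757 and 3159 on the null arrays, against 1700, 2123 and 1205 on the heterozygous arrays. The groups were separate, with the lowest null array 0.37 above the highest heterozygous array on the log2 scale. The level averaged 11.66 ± 0.24 in null bladders and 10.69 ± 0.41 in heterozygous ones (SD, n = 3 each), a 1.97-fold difference (log2 difference 0.98, SE 0.27, adjusted p = 0.353, limma). The other Dsc2 probe set, which was dimmer, had a difference of 1.099, also with separate groups.

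Dsg2 (desmoglein 2) had signals of 6446, 7352 and 7760 on the null arrays, against 4649, 5902 and 6411 on the heterozygous arrays. The groups touched: the lowest null array lay only 0.0078 above the highest heterozygous array on the log2 scale. The difference was 0.35 (95% interval −0.16 to 0.87, adjusted p = 0.767, limma), so a 1.82-fold higher level and a slightly lower one both lie inside the interval. Of the 6 Dsg2 probe sets, 5 passed the filter, and these had differences from 0.32 to 0.45, with overlapping groups in all but the brightest. Without heterozygous array 4 the difference of the brightest was 0.22.

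Dsc3 (desmocollin 3, a cadherin of stratified epithelia) had signals of 77.0, 432.3 and 1017 on the null arrays, against 697.0, 996.4 and 311.5 on the heterozygous arrays. Null array 1 was the lowest of the 6 and null array 3 the highest, so the groups overlapped fully. The SD among null arrays was 1.76, the widest of any member in either group, and the difference was −0.82 (SE 0.83, adjusted p = 0.877, limma). Without null array 1, which leaves the 5 arrays with 2 as the first number of their title, the difference was 0.14, so its sign rests on that array.

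Of the plaque genes, Pkp2 (plakophilin 2) had signals of 2097, 2266 and 1810 on the null arrays, against 807.4, 746.9 and 1782 on the heterozygous arrays. Heterozygous arrays 4 and 5 were low and array 6 lay 0.02 below the lowest null array on the log2 scale. The log2 difference was 0.99 (SE 0.35, adjusted p = 0.519, limma) and 1.38 without heterozygous array 6 (adjusted p = 0.0720, limma), the lowest adjusted p of any member in any setting tried. All 4 Pkp2 probe sets were higher in null on average, by 0.65 to 0.99, and 3 of them had separate groups.

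Pkp3 (plakophilin 3) was dim, with signals of 101.1, 115.7 and 77.5 on the null arrays, against 16.2, 31.8 and 101.5 on the heterozygous arrays. As for Pkp2, heterozygous array 6 was the high one of its group, and here it overlapped the null arrays. The difference of 1.00 (SE 0.45, adjusted p = 0.637, limma) depended on the offset added before the logarithm, being 1.34 with 1 and 0.57 with 64. It was 0.59 without heterozygous array 4 and 1.53 without heterozygous array 6 (adjusted p = 0.140, limma), where the groups were separate. A second Pkp3 probe set lay below the filter in both groups and went the other way. Its difference was −0.85, with every null array below every heterozygous array.

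Pkp1 (plakophilin 1, a plaque protein of stratified epithelia) had a lower mean level in null, with signals of 248.7, 624.4 and 313.9 on the null arrays, against 396.8, 972.2 and 1194 on the heterozygous arrays. Heterozygous array 4 lay within the null range, so the groups overlapped. The level averaged 8.58 ± 0.66 in null bladders and 9.63 ± 0.82 in heterozygous ones (SD, n = 3 each), a difference of −1.05 (SE 0.48, adjusted p = 0.644, limma). It was below 0 in every alternative run and ranged from −1.52 to −0.66.

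Jup (plakoglobin, which takes part in both junctions) had signals of 2670, 1302 and 1707 on the null arrays, against 2049, 1033 and 1516 on the heterozygous arrays. The groups overlapped, with a difference of 0.29 (95% interval −0.52 to 1.102, adjusted p = 0.904, limma), which was 0.015 without null array 1 and 0.53 without null array 2. Its single probe set can also match other transcripts, as its name ending shows.

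Dsp (desmoplakin, which anchors keratin filaments) had signals of 8783, 8992 and 10187 on the null arrays, against 5537, 6863 and 8599 on the heterozygous arrays. The null arrays were close together and heterozygous array 6 almost reached them, 0.03 below the lowest on the log2 scale. The difference was 0.43 (95% interval −0.11 to 0.98, adjusted p = 0.734, limma), and a second bright probe set gave 0.44 with groups that overlapped. The remaining one, dim and below the filter, gave −0.43, and with all 3 averaged the difference was 0.15. Without heterozygous array 4 the brightest set gave 0.28.

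**Figure D2:**
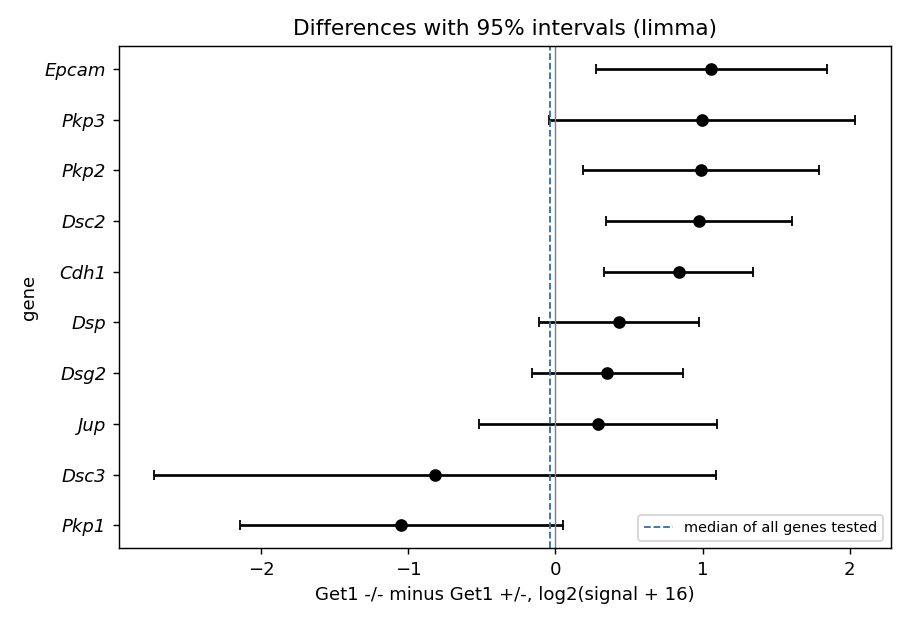
Difference between Get1 -/- and Get1 +/- bladders for each gene on the log2(signal + 16) scale, with 95% intervals from limma that are not adjusted for the number of genes. The intervals of Epcam, Pkp2, Dsc2 and Cdh1 lie above 0, those of the other 6 genes include it, and the dashed line is the median of all genes at −0.03.

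The small gaps made the count of separate groups depend on scaling. It was 6 as deposited and 4 with quantile normalization, where Dsp and Dsg2 overlapped, and 4 with each array centred on its median, where Dsp and Pkp2 overlapped. Averaging the probe sets of each gene also gave 4, with Dsp and Dsg2 overlapping. Cdh1, Epcam and Dsc2 had separate groups in all 3 of these alternatives, which are the ones that can turn the order of arrays.

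The 10 genes had 24 probe sets in all, of which 20 passed the filter when probe sets were fitted in place of genes. Of these 20, 18 were higher and 2 lower in null on average, and those 2 were the single Pkp1 probe set and the brighter one of Dsc3. None passed the adjusted threshold (0 of 20, against 0.27% of all 24461 probe sets tested, limma). At an unadjusted p under 0.05, 8 were higher and 0 lower in null, beside 3.36% of all probe sets that were higher, and 9 had separate groups with null higher, beside 5.81% of all probe sets. Probe sets of 1 gene share its RNA and are no replicates. For 6 of the 24, the name ending marks a possible match to other transcripts, among them the brightest sets of Jup and Pkp2.

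**Figure D3:**
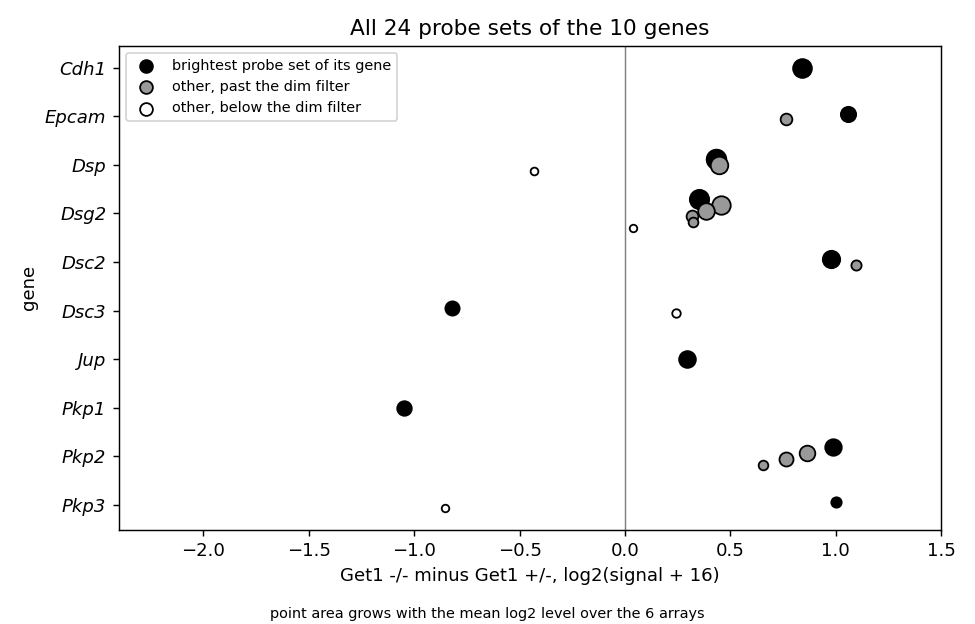
Difference between Get1 -/- and Get1 +/- bladders for all 24 probe sets, on the log2(signal + 16) scale; black points are the brightest set of each gene, grey ones other sets past the filter and white ones below it, and area grows with the mean level. The sets past the filter stand on 1 side of 0 within each gene, while white points scatter on both sides.

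Within families, log2 ratios of paired members were compared between the groups. The level of Pkp1 minus that of Pkp2 on the same array was −2.997, −1.83 and −2.47 on the null arrays, against −0.996, 0.37 and −0.57 on the heterozygous arrays. The groups did not overlap, and this log2 ratio differed by −2.03 between them (exact permutation p = 0.1, adjusted p = 0.2 over 6 pairs). Pkp1 against Pkp3 gave a shift of −2.05 with the same exact p values, while Pkp2 against Pkp3 gave −0.01 with overlap (exact permutation p = 1). Pkp3 was dim, with heterozygous arrays 4 and 5 at 5.01 and 5.58, below the filter level of 5.80. Its own difference depended on the offset, so both ratios to Pkp3 may depend on it too.

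Cdh3 encodes P-cadherin, a classical cadherin of basal epithelial cells. Its level was 5.80, 5.81 and 5.54 on the null arrays, against 6.33, 6.23 and 6.43 on the heterozygous arrays. The null mean lay below the filter level of 5.80 and the heterozygous mean above it, so no ratio to Cdh1 is given. Its difference of −0.62 did not pass (adjusted p = 0.48, limma) and depended on the offset, being −0.81 with 1 and −0.35 with 64. The ratios of Dsc2 to Dsc3 and of Jup to its relative Ctnnb1 (beta-catenin) shifted by 1.80 and 0.29, both with overlap (exact permutation p = 0.2 and 0.5). Pairs were chosen after the members' values had been seen, and with 3 against 3 arrays no exact p can lie under 0.1, so the shifts are a description.

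Other genes of the junctions were read from further lists. Of 10 other desmosome and linked cornified-junction genes, 7 had a probe set and 4 were tested, and 0 passed in either direction (limma), while 1, Evpl, was lower at an unadjusted p under 0.05. These were Evpl (envoplakin) at −0.83, Ppl (periplakin) at −0.28, Perp, a tetraspan desmosome protein, at 0.15 and Pkp4, a relative of the plakophilins, at 0.00 (adjusted p from 0.558 to 0.999, limma). Dsg1a, Dsg1b and Dsc1, which belong to stratified epithelia such as epidermis, had mean levels below the filter in both groups.

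Of 20 other adherens junction genes, 18 were tested and 0 passed (limma), with 2 higher and 1 lower at an unadjusted p under 0.05 and a median difference of 0.17. The smallest p-values belonged to Cdh3, Shroom3, which drives apical constriction (0.63), and the actin cross-linkers Actn4 (0.50) and Actn1 (0.45), with adjusted p from 0.48 to 0.667 (limma). Shroom3, Actn4 and Actn1 had separate groups with null higher and Cdh3 with null lower, beside 6.07% and 7.36% of all genes. Actn1 is also made by smooth muscle, whose list is given below.

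Cadherins of other cell types included the 1 call among these lists. Cdh17, the liver-intestine cadherin, rose to 7.87, 8.73 and 8.23 on the null arrays, against 5.21, 5.36 and 5.22 on the heterozygous arrays. The heterozygous level lies below the filter, so Cdh17 was tested only through its high null arrays. The difference was 3.02 (SE 0.26, adjusted p = 0.0019, limma). Of the 9 tested genes of this list 1 rose and 0 fell, beside 0.448% and 0.0628% of all genes. Cdh5 of endothelium (0.41), Cdh16 of kidney epithelium (−0.84) and Cdh11 of mesenchyme (−0.21) did not pass (adjusted p from 0.722 to 0.864, limma).

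Of 8 repressors of E-cadherin, the Snail, Zeb and Twist factors with Tcf3, 7 were tested and 0 passed (limma), with 0 at an unadjusted p under 0.05 in either direction and a median difference of −0.26. Twist1 was at −0.54, Twist2 at −0.40, Snai2 at −0.31 and Snai3 at −0.23 (adjusted p from 0.654 to 0.91, limma). Snai2 had levels of 12.97, 12.84 and 13.15 on the null arrays, against 13.33, 13.41 and 13.16 on the heterozygous arrays, separate by a small gap. Zeb2 was at 0.36 and Zeb1 at 0.00, both with overlap. Snai1 was not tested, since its mean over the 6 arrays lay below the filter, and its level was 6.19, 6.21 and 5.85 on the null arrays, against 5.54, 5.12 and 5.69 on the heterozygous arrays, separate with null higher. Zeb2, Zeb1 and Snai1 are named here after their values were seen. Several of these factors are also made by fibroblasts.

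Factors known to activate epithelial genes had 0 calls among 13 tested (limma), 2 higher and 0 lower at an unadjusted p under 0.05, and a median of 0.30. Foxa1, a factor of endoderm-derived epithelium, was at 0.69, Ehf at 0.80 and Elf5 at −0.74, the last being dim, and Grhl3 itself was at −0.95 (adjusted p from 0.553 to 0.655, limma). Foxa1 and Ehf had separate groups with null higher and Grhl3 with null lower, beside 6.07% and 7.36% of all genes. Grhl2, known in mouse as an activator of Cdh1, was at 0.53 (adjusted p = 0.722, limma).

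**Figure D4:**
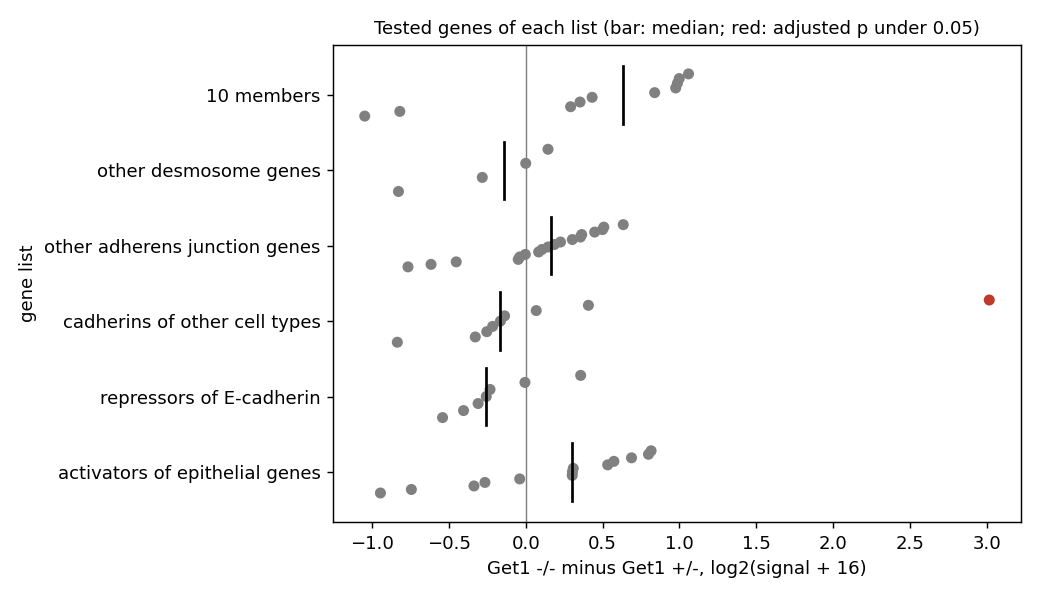
Difference between Get1 -/- and Get1 +/- bladders for each tested gene of 6 lists, on the log2(signal + 16) scale, with bars at list medians and red for an adjusted p under 0.05. The single red point is Cdh17 at 3.02, and the medians lie between −0.26 (repressors of E-cadherin) and 0.64 (the 10 members).

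Markers of the tissue and of other cells were set beside the members array by array. The mean level of the 10 members relative to the heterozygous mean was 0.21, 0.43 and 0.58 on null arrays 1 to 3, against −0.23, 0.11 and 0.13 on heterozygous arrays 4 to 6. The means of the 2 groups were separate, null array 3 was highest, and heterozygous array 4, which held the lowest value of 4 members, was lowest. Without Dsc3, whose null arrays were spread most, the null values were 0.54, 0.53 and 0.56, against −0.28, 0.04 and 0.24 on the heterozygous arrays, so the low value of null array 1 rests on Dsc3; this alternative was chosen after seeing the data.

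Simple epithelial keratins (Krt7, Krt8, Krt18, Krt19, Krt23) averaged 0.12, 0.17 and 0.41 on the null arrays, against −0.50, 0.16 and 0.33 on the heterozygous arrays. Heterozygous array 4 was low here too, and the groups overlapped. Of the 5 keratins 0 passed (limma) and 1 was higher at an unadjusted p under 0.05, with Krt19 at 1.15 and Krt18 at −0.50, both with separate groups but in opposite directions.

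Of 9 basal urothelial markers 8 were tested and 0 passed (limma, 2 at an unadjusted p under 0.05), all 8 with a difference above 0 and a median of 0.53. The differences ran from 0.03 (Krt5) to 1.00 (Shh), and the keratins Krt5 and Krt14 (0.30) had overlapping groups. Cdh3, of basal epithelial cells but outside this list, was lower in null (−0.62). Of the 8, 4 had separate groups with null higher, beside 6.07% of all genes, and 0 with null lower, beside 7.36%. By array the 9 lay at 0.56, 0.44 and 0.71 in null, against −0.24, 0.23 and 0.01 in heterozygous bladders. Of 8 umbrella cell markers 3 fell (Snx31, Upk2 and Psca), beside 0.0628% of all genes, and 0 rose, beside 0.448%, with a median of −1.47. Their summed signal ran from 8344 to 10855 on the null arrays and from 14602 to 21622 on the heterozygous arrays, and Snx31 had a null level below the filter.

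Intestinal epithelial markers averaged higher on all null arrays, as did the members and the basal urothelial, smooth muscle and other adherens junction lists. Of the 13 intestinal genes 11 were tested and 10 rose, beside 0.448% of all genes. The exception was Fabp2 (2.53, adjusted p = 0.576, limma). The summed signal of the 13 ran from 16161 to 26041 on the null arrays and from 336.1 to 742.1 on the heterozygous arrays. By array this list lay at 3.46, 4.24 and 4.34 in null, against −0.01, −0.23 and 0.24 in heterozygous bladders. In heterozygous bladders 10 of the 13 had a mean below the filter, all but Vil1, Lgals4 and Hnf4a, and in null bladders 1 did, Cdx1. Those of the 10 that were tested passed the filter only through their high null arrays. Gut epithelium, like other epithelia, has both junctions, and which members it makes was not measured here. The part of these markers' cells, or of basal urothelial cells, in the members' differences was not tested.

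**Figure D5:**
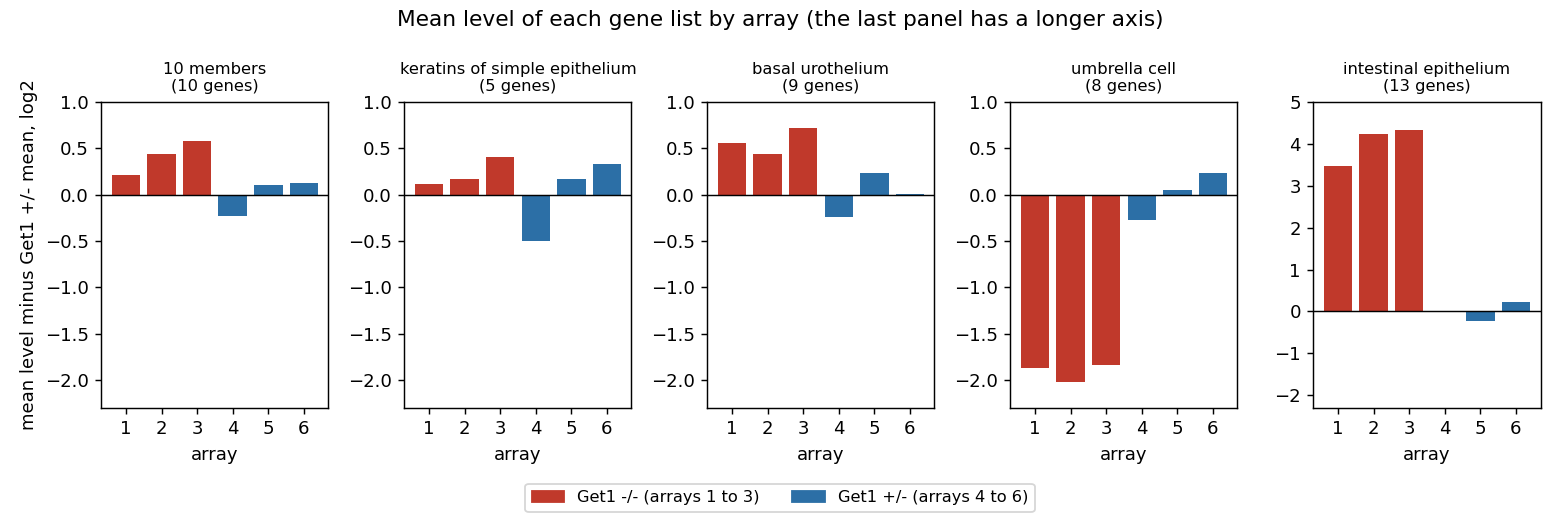
Mean level of 5 gene lists on each array relative to the mean of the Get1 +/- arrays, in log2 units, with Get1 -/- arrays 1 to 3 left of Get1 +/- arrays 4 to 6; the last panel has a longer axis. The members reach 0.58 on array 3 and −0.23 on array 4, the intestinal list 3.46 to 4.34 on the Get1 -/- arrays, and the umbrella cell list is low on the same 3 arrays.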

How the data were processed

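Expression was measured on 6 arrays of mouse bladder. The deposited values are linear probe set intensities. Per the submitters' processing notes the authors used Affymetrix Expression Console 1.1 and PLIER 2.0, and the sources used here name neither a background step nor a normalization. The labelling protocol describes sense-strand DNA for whole-transcript arrays, which the probe set names do not match, and this was not settled.

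Of 45101 probe sets, 64 controls were left out, 34945 had 1 gene symbol in the platform annotation, 932 had several and 9160 were unnamed here; only those with 1 symbol were used. Values were taken as log2(value + 16), so folds of dim genes are understated. Genes with a mean under 5.80 (a signal of 39.8) were left out. The genotypes were compared in R 4.3.3 by the moderated test of limma 3.58.1 (two-sided, Benjamini-Hochberg). In a test on simulated arrays with 12735 genes, the share of changed genes called was 22.9% for log2 changes of 1, 64.0% for 2 and 95.7% for 4. The changed genes were a small random subset, with normal noise of each gene's observed SD, so these shares hold for that setting only. The number of arrays limits the precision.

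Members and lists were chosen with earlier results of these data known. All members are named, with up to 4 genes of smallest p per junction or regulator list, the calls, and Grhl2, which was added after its value was seen; marker genes are named as examples. The 5 genes most like the members' mean profile were taken by Pearson correlation.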

Additional observations from a re-analysis of the deposited data

How the results depend on the processing

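All 10 members stayed above the adjusted threshold in the 17 alternatives run (0 called in either direction). Of 168 member results under alternatives, 165 kept their direction and 3 turned it, all of Dsc3: 0.14 without null 1, which is also the fit of the 5 arrays with title number 2, and 0.24 without null 1 and heterozygous 4 together, a pair chosen after seeing the data. With single arrays left out Dsc3 ranged from −1.60 to 0.14, Jup from 0.015 to 0.53, Dsg2 from 0.22 to 0.45, Dsp from 0.28 to 0.59, Pkp1 from −1.52 to −0.74, Pkp2 from 0.76 to 1.38, Pkp3 from 0.59 to 1.53, Perp from −0.085 to 0.29 and Pkp4 from −0.045 to 0.026. Pkp3 was not tested with probe sets averaged or a 50% filter. The median over members was 0.30 with probe sets averaged and 0.44 without that pair of arrays, and 0.56 to 0.71 with single arrays left out. Over all genes 35 were higher and 5 lower with an offset of 1, and 5 were lower with a 50% filter or without null 1 and heterozygous 4. With single arrays left out, 38 to 54 were higher and 5 to 9 lower. With array weights 77 were higher and 12 lower. Some genes of the other lists changed sign. Pkp4 was −0.0056 with quantile normalization, −0.023 with array weights and −0.018 without null 2. Perp was −0.073 with array weights and −0.0086 without null 1 or in the 5 arrays. Snai3, at −0.23 with all arrays, was 0.023 without null 1 and heterozygous 4. The cause of these changes was not tested. No paired analysis was possible because the groups share no replicate number.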

Other observations

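The remaining cell types of a dissected bladder had 0 calls among the tested genes (limma). At an unadjusted p under 0.05, 3 smooth muscle and 2 mesothelial genes were higher, and 2 fibroblast, 2 endothelial, 1 nerve or glial and 1 mesothelial gene were lower. Over all genes 3.63% were higher and 4.3% lower by that measure. The lists share genes, so their counts are not independent. Of the 2 mesothelial genes that were higher, 1 is Krt19, also a keratin above, and Upk3b is also an umbrella cell marker. Cdh17 is also in the intestinal list, Cdh5 in the endothelial list, and Trp63 in both the activator and basal lists. Smooth muscle, the detrusor wall, had all 9 tested markers above 0 with a median of 0.24. Separate groups with null higher were seen for 4 of the 9, beside 6.07% of all genes, among them Des at 0.80 (adjusted p = 0.281, limma). By array these 9 lay at 0.55, 0.34 and 0.24 in null, against −0.02, 0.04 and −0.02 in heterozygous bladders. Median differences were −0.20 for 8 fibroblast genes, −0.39 for 7 endothelial genes, −0.18 for 5 nerve and glial genes, −0.18 for 6 immune genes and 0.18 for 5 mesothelial genes. Single arrays moved most of these medians: without heterozygous 4 the mesothelial one was −0.73 and the nerve one −0.43, and without heterozygous 5 they were 0.93 and −0.52. Without null 3 they were 0.46 and −0.50, and without null 1 the mesothelial one was 0.01. The mesothelial median was also 0.96 with an offset of 1 and −0.04 with 64. The immune median was 0.12 without heterozygous 6 and the fibroblast median −0.015 without heterozygous 5. Of 3 erythroid genes with a probe set 1 was tested, Alas2, at −0.04. The immune list had its highest mean on heterozygous array 6, at 0.78 over the heterozygous mean.

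The 5 genes whose levels over the 6 arrays were most like the mean profile of the members were St14, Pklr, Myo5c, Ttc6 and S100g. Their Pearson r ran from 0.96 (S100g) to 0.98 (St14) and Spearman's rho from 0.94 to 1. They were the highest of 1509 candidate genes over only 6 arrays of 2 groups, so this is a description. St14, which encodes the epithelial serine protease matriptase, was at 7.25, 7.86 and 7.98 on the null arrays, against 5.98, 6.83 and 7.26 on the heterozygous arrays. S100g, a calcium-binding protein of gut epithelium, was at 7.39, 9.28 and 9.12 on the null arrays, against 5.42, 6.38 and 6.67 on the heterozygous arrays. None of the 5 passed the adjusted threshold (adjusted p from 0.207 to 0.543, limma).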
